A study of Mus musculus with 6 samples.

Results

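The enzymes that make, elongate and desaturate fatty acids were examined in liver RNA of old mice. The members were the rows of the deposited count table with the symbols Acly, Acaca, Acacb, Fasn, Scd1, Elovl5, Elovl6, Fads1, Fads2 and Me1, which are 10 of 32212 rows. All 10 were among the 13867 genes that passed the filter on low counts. Poly(A)-selected RNA was sequenced from livers of 3 WT and 3 CgA-KO mice, with 1 library per replicate. CgA-KO mice lack chromogranin A (CgA), the prohormone encoded by Chga. Every mouse was a male of the C57BL/6 background at 2 yr of age, fed normal chow and held under a 12 hr light and dark cycle. The labels do not give litter, hour of collection or feeding state. The comparison asked which genes differ between the livers of the genotypes at this age.

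The liver turns excess carbohydrate into fatty acids. Citrate that leaves the mitochondria is cleaved to acetyl-CoA, a carboxylase turns this into malonyl-CoA, and fatty acid synthase builds palmitate from both with electrons from NADPH. Elongases then lengthen the chain and desaturases place double bonds in it, both for newly made fat and for the polyunsaturated fatty acids that come from the diet. Much of this set is transcribed under the control of SREBP-1c, which insulin raises, and of the glucose sensor ChREBP.

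The libraries held between 10558616 and 31087453 counts, and levels are given as CPM, counts scaled to a common library total after TMM normalization, with factors from 0.756 in WT replicate 2 to 1.12 in CgA-KO replicate 1. A count of 3, the lowest level taken as detectable, was worth between 0.0965 and 0.284 CPM when divided by the library total alone, without the TMM factor, which covers counting error only. Chga had 0 counts in all 6 libraries, so the targeted gene could not check the genotype labels. The hepatocyte markers were abundant in every library. Their summed level was 58870 to 98650 CPM in WT and 48870 to 85250 CPM in CgA-KO, and 0 of 12 passed the test. Of the 12, 10 were lower in CgA-KO, and the median log2 fold change was -0.22. One library stood apart: CgA-KO replicate 2 had 2107 counts of Mpo and 588 of Elane, which encode granule proteins of neutrophils and their precursors, whereas the other libraries had at most 15 and 16. Results are therefore also given without it.

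Of the 10 enzymes, 5 fell in CgA-KO livers and 0 rose. A gene was called where the p-value of the quasi-likelihood test of edgeR, adjusted by the Benjamini-Hochberg method for every gene in the table that passed the filter, was under 0.05. The 5 were Fasn, Me1, Fads2, Elovl6 and Acaca. Over all genes tested, 3.84% were called lower and 12.4% were called in either direction. In 6 of the 10, which were these and Acly, every CgA-KO library lay below every WT library, compared with 14.6% of all genes tested. This number was also 6 by library size alone and with upper-quartile factors, and it was 4 with scaling to hepatocyte markers. The median log2 fold change of the enzymes was -0.92, and that of all genes tested was -0.0075. Together the enzymes took 0.457%, 0.639% and 0.490% of the counts in WT replicates 1, 2 and 3, and 0.480%, 0.270% and 0.298% in CgA-KO replicates 1, 2 and 3. The share in CgA-KO replicate 1 was thus within the WT range.

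**Figure D1:**
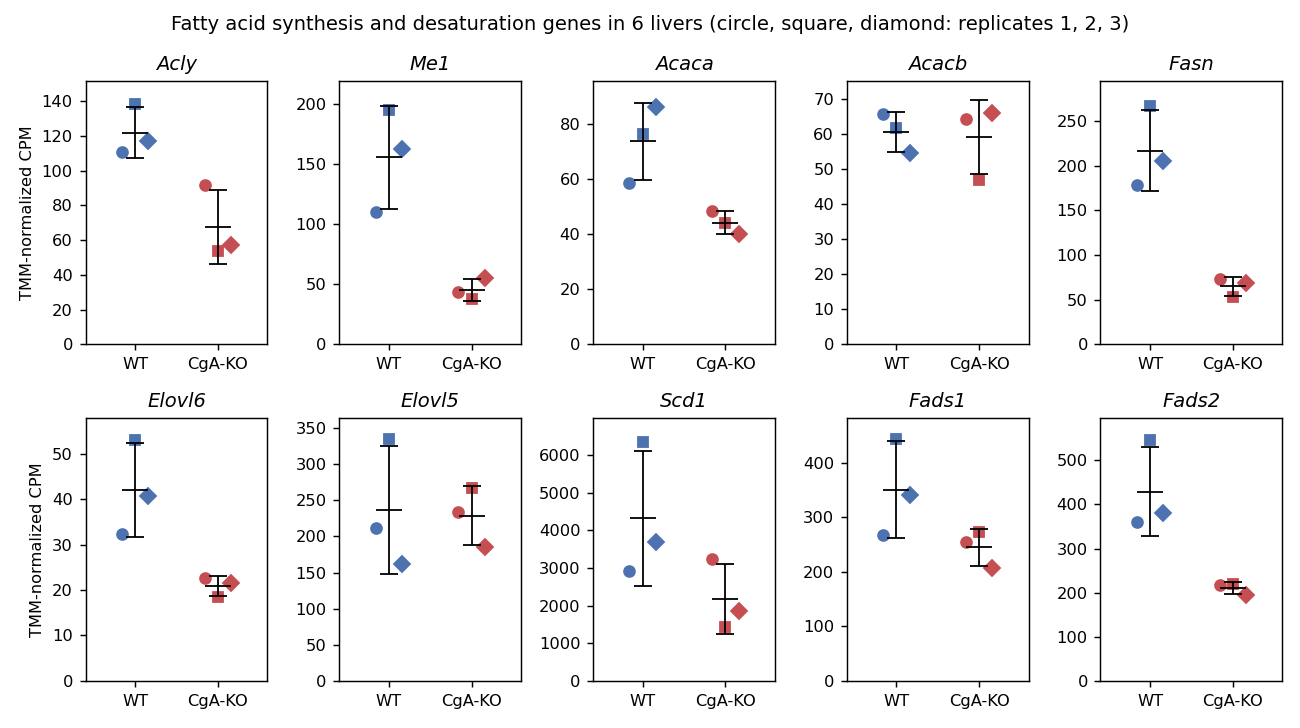
Level of each of the 10 enzymes in CPM (linear axis from 0) in the 3 WT and 3 CgA-KO livers, with points for single libraries and bars for the mean and SD. All 3 CgA-KO points lie below all 3 WT points in 6 panels, and the points of Acacb, Elovl5, Scd1 and Fads1 overlap.

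Which enzymes depended on a single library was examined by leaving out each in turn. Of the WT libraries, leaving out replicate 1 left 5 enzymes called lower (3.95% of all genes were called lower in that fit), replicate 2 left 4 (2.63%) and replicate 3 left 2 (0.836%). Of the CgA-KO libraries, leaving out replicate 1 left 3 (1.02%), replicate 2 left 2 (1.9%) and replicate 3 left 3 (2.03%). Fasn and Me1 were called in all 6 of these fits. The median log2 fold change of the enzymes stayed between -1.03 and -0.71. On all 6 libraries, DESeq2 called 7 of the 10 lower (6.35% of all genes), a fit with the replicate number as a block called 4 (2.92%), and scaling to hepatocyte markers left 2 (0.75%), again Fasn and Me1.

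The first steps supply acetyl-CoA and NADPH. Me1, the cytosolic malic enzyme that yields NADPH, is on chromosome 9 (86581371 to 86695953, GRCm38, minus strand). It measured 110, 195 and 162 CPM in WT replicates 1, 2 and 3 and 43.6, 37.2 and 54.7 CPM in CgA-KO replicates 1, 2 and 3. The genotypes did not overlap, and the lowest WT library was far above the highest CgA-KO library. From 155 ± 42.9 CPM (SD, n = 3 livers) in WT to 45.2 ± 8.86 CPM in CgA-KO, Me1 fell by 1.78 on the log2 scale (SE 0.263, 95% interval -2.38 to -1.19, adjusted p = 0.00603 in edgeR's test), to 29.1% of the WT mean. Acly, ATP-citrate lyase on chromosome 11 (100476353 to 100528000, minus strand), makes cytosolic acetyl-CoA from citrate. It was at 111, 139 and 117 CPM in WT replicates 1 to 3 and at 92.0, 53.6 and 57.1 CPM in CgA-KO replicates 1 to 3. All CgA-KO values lay below the WT values, with CgA-KO replicate 1 nearest to them. The log2 fold change was -0.85 (SE 0.247, 95% interval -1.41 to -0.29), and the adjusted p-value of 0.0548 did not pass. Without CgA-KO replicate 1 the change was -1.11 with an adjusted p-value of 0.0355 in edgeR's test, and with DESeq2 on all libraries the adjusted p-value was 0.0103. Under 10 of 14 alternatives Acly did not pass. Its adjusted p-value in edgeR's test was 0.157 without CgA-KO replicate 3 and 0.4395 with scaling to hepatocyte markers, the highest.

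Both carboxylases make malonyl-CoA. Acaca encodes the cytosolic acetyl-CoA carboxylase that feeds synthesis, and Acacb the form on the outer mitochondrial membrane, whose malonyl-CoA restrains entry of fatty acids into mitochondria. Acaca, on chromosome 11 (84129672 to 84401651, plus strand), was at 58.4, 76.5 and 86.1 CPM in WT replicates 1 to 3 and at 48.4, 43.9 and 40.1 CPM in CgA-KO replicates 1 to 3. The groups were separated by a narrow gap. Acaca fell by 0.74 on the log2 scale (SE 0.199, 95% interval -1.19 to -0.29, adjusted p = 0.0431 in edgeR's test), from 73.7 ± 14.1 to 44.1 ± 4.13 CPM (SD, n = 3). This call was near the threshold: the adjusted p-value was 0.0885 without WT replicate 2, 0.179 without WT replicate 3, and 0.106, 0.108 and 0.133 without CgA-KO replicates 1, 2 and 3. Only without WT replicate 1, among these fits, did Acaca pass, at 0.0246. Acacb, on chromosome 5 (114146535 to 114250761, plus strand), was at 65.7, 61.9 and 54.6 CPM in WT and at 64.4, 47.0 and 66.2 CPM in CgA-KO replicates 1 to 3. These values overlapped, with a CgA-KO library at either end. The log2 fold change of Acacb was -0.04 (SE 0.196, 95% interval -0.48 to 0.41, adjusted p = 0.926 in edgeR's test), and it was 0.23 with scaling by library size alone, 0.0198 with upper-quartile factors and 0.25 with scaling to hepatocyte markers, so no direction can be given.

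Fatty acid synthase, the product of Fasn, carries out the whole cycle that builds palmitate. Fasn is on chromosome 11 (120805846 to 120824547, minus strand). It was at 178, 267 and 205 CPM in WT replicates 1 to 3 and at 72.7, 52.6 and 69.1 CPM in CgA-KO replicates 1 to 3. Every WT value was far above the highest CgA-KO value. Fasn fell by 1.74 on the log2 scale (SE 0.237, 95% interval -2.28 to -1.21, adjusted p = 0.00498 in edgeR's test), from 217 ± 45.8 to 64.8 ± 10.7 CPM (SD, n = 3), which is 29.9% of the WT mean. Fasn and Me1 were called under all 14 alternatives tried, with adjusted p-values up to 0.0275 and 0.0303.

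**Figure D2:**
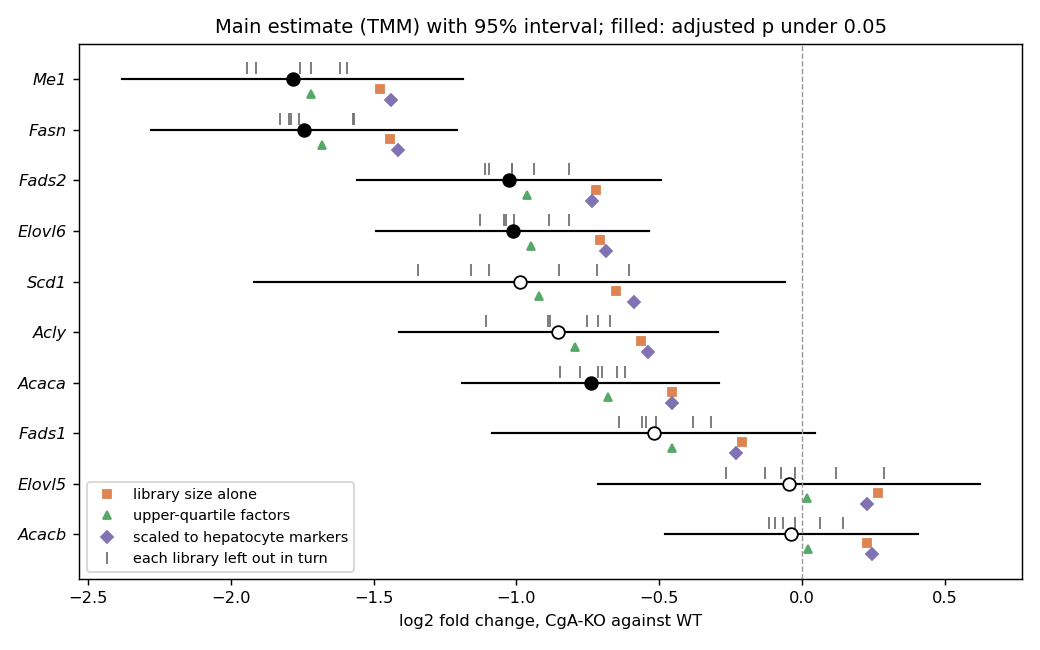
Log2 fold change of CgA-KO against WT for each enzyme (points) with its 95% interval (bars); filled points passed the test. Fasn and Me1 lie farthest below 0 at -1.74 and -1.78, whereas Acacb and Elovl5 lie at -0.04 and -0.05 with intervals that span 0.

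The elongases carry out the first step of each round of chain elongation and select the chains that enter it. Elovl6, on chromosome 3 (129532355 to 129638495, plus strand), extends palmitate to stearate and acts on saturated and monounsaturated chains. It measured 32.4, 52.9 and 40.7 CPM in WT replicates 1 to 3 and 22.6, 18.4 and 21.6 CPM in CgA-KO replicates 1 to 3. The CgA-KO livers lay close together and below all WT livers. Elovl6 fell by 1.01 on the log2 scale (SE 0.211, 95% interval -1.49 to -0.54, adjusted p = 0.0180 in edgeR's test), from 42.0 ± 10.3 to 20.9 ± 2.22 CPM (SD, n = 3). It did not pass without WT replicate 3 (adjusted p = 0.0753), CgA-KO replicate 1 (0.0542) or CgA-KO replicate 2 (0.0617), or with scaling to hepatocyte markers (0.232), by edgeR's test in each case. Elovl5, on chromosome 9 (77917364 to 77984519, plus strand), elongates polyunsaturated chains. It was at 212, 334 and 162 CPM in WT and at 234, 267 and 185 CPM in CgA-KO replicates 1 to 3. All CgA-KO values fell within the range of the WT values. The log2 fold change of Elovl5 was -0.05 (SE 0.295, 95% interval -0.72 to 0.62, adjusted p = 0.938 in edgeR's test), and it was 0.27, 0.0177 and 0.23 under scaling by library size, upper-quartile factors and hepatocyte markers, so no direction can be given.

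Desaturases place the double bonds. Scd1, the stearoyl-CoA desaturase of adult mouse liver that makes oleate and palmitoleate, is on chromosome 19 (44394455 to 44407879, minus strand). It was at 2923, 6341 and 3693 CPM in WT replicates 1 to 3 and at 3230, 1444 and 1861 CPM in CgA-KO replicates 1 to 3. CgA-KO replicate 1 lay above WT replicate 1, so the groups overlapped. The log2 fold change was -0.99 (SE 0.410, 95% interval -1.92 to -0.06). With an adjusted p-value of 0.150 in edgeR's test it did not pass, while DESeq2 gave 0.0411. Without WT replicate 2, the highest library, the log2 fold change of Scd1 was -0.60, and without CgA-KO replicate 1 it was -1.34.

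Fads2 and Fads1 encode the desaturases that act in turn on dietary polyunsaturated fatty acids. They lie on chromosome 19 with their starts toward each other, 81142 bp apart, and are transcribed away from each other. Fads2 spans 10062765 to 10101746 on the minus strand and Fads1 spans 10182888 to 10196877 on the plus strand. Fads2 was at 361, 545 and 380 CPM in WT replicates 1 to 3 and at 218, 220 and 194 CPM in CgA-KO replicates 1 to 3. The CgA-KO livers were nearly equal and well below the WT livers. Fads2 fell by 1.03 on the log2 scale (SE 0.235, 95% interval -1.56 to -0.49, adjusted p = 0.0247 in edgeR's test), from 429 ± 101 to 211 ± 14.4 CPM (SD, n = 3). The call was lost without WT replicate 3 (adjusted p = 0.0855) or CgA-KO replicates 1, 2 or 3 (0.0772, 0.0575 and 0.0772), and with scaling to hepatocyte markers (0.0963). Fads1 was at 268, 443 and 341 CPM in WT and at 255, 272 and 207 CPM in CgA-KO replicates 1 to 3. Its groups overlapped only through WT replicate 1 and CgA-KO replicate 2, which were nearly equal. The log2 fold change of Fads1 was -0.52 (SE 0.249, 95% interval -1.08 to 0.04, adjusted p = 0.205 in edgeR's test), and it passed under 0 of 14 alternatives.

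Since ratios of genes within a library do not depend on how libraries are scaled, 5 ratios of counts were computed, with pairs chosen after the values were seen. The ratio of Fads1 to Fads2 was 0.742, 0.813 and 0.897 in WT replicates 1 to 3 and 1.17, 1.24 and 1.07 in CgA-KO replicates 1 to 3. The ratio of Elovl5 to Elovl6 was 6.55, 6.32 and 3.98 in WT and 10.3, 14.5 and 8.57 in CgA-KO. For both, all CgA-KO livers were above all WT livers. The ratio of Scd1 to Fasn was 16.4, 23.7 and 18 in WT and 44.5, 27.5 and 26.9 in CgA-KO, and that of Elovl5 to Fasn was 1.19, 1.25 and 0.789 against 3.22, 5.08 and 2.68. Acacb to Acaca was 1.13, 0.810 and 0.634 in WT and 1.33, 1.07 and 1.65 in CgA-KO, where WT replicate 1 lay above CgA-KO replicate 2. The first 4 ratios each had a two-sided exact permutation p-value of 0.1, the smallest that 3 livers against 3 can give, and that for Acacb to Acaca was 0.2. After Benjamini-Hochberg adjustment over the 5, the p-value of the first 4 was 0.125. This adjustment does not allow for the choice of pairs after the values were seen, so no conclusion is drawn from these p-values.

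**Figure D3:**
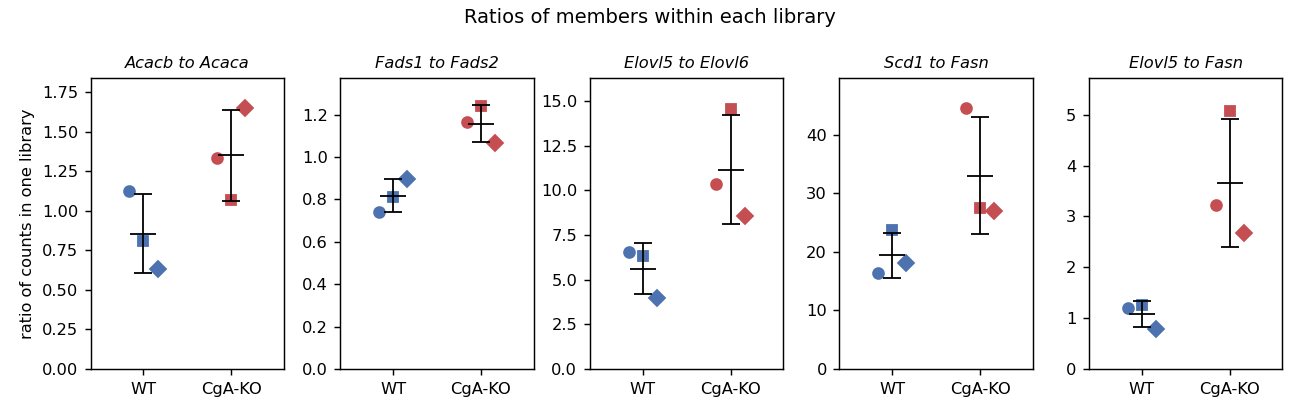
Ratios of counts between pairs of enzymes within each library (linear axes from 0), with points for single livers and bars for the mean and SD of 3 WT and 3 CgA-KO livers. In 4 of the 5 panels every CgA-KO liver lies above every WT liver; in the panel of Acacb to Acaca they overlap.

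Levels were compared between genes per length, as RPKM from the exonic length of each gene. In WT livers Scd1 was highest at 883 ± 367 RPKM (SD, n = 3), followed by Fads2 at 130 ± 30.7, Fads1 at 72.9 ± 18.3, Elovl5 at 67.1 ± 25.2 and Me1 at 40.4 ± 11.1. Acly at 23.1 ± 2.78 RPKM and Fasn at 19.8 ± 4.18 came next, then Elovl6 at 6.53 ± 1.6, Acacb at 6.31 ± 0.590 and Acaca at 4.31 ± 0.824. The ranges of neighbours overlapped for Fads1 and Elovl5, for Elovl5 and Me1, for Acly and Fasn and for Elovl6 and Acacb. In CgA-KO livers the order was Scd1 (445 ± 191 RPKM), Elovl5 (64.9 ± 11.7), Fads2 (64.0 ± 4.37), Fads1 (50.9 ± 6.98), Acly (12.8 ± 4.02), Me1 (11.7 ± 2.30), Acacb (6.15 ± 1.10), Fasn (5.92 ± 0.979), Elovl6 (3.24 ± 0.345) and Acaca (2.58 ± 0.242). There the ranges overlapped for Elovl5 and Fads2, Acly and Me1, and Acacb and Fasn. Fasn was thus above Acacb in each WT liver and overlapped it in CgA-KO livers. The order depended in part on the length used. With the longest coding transcript, Acaca moved in WT to 7.74 ± 1.48 RPKM, above Elovl6 at 7.06 ± 1.73 and Acacb at 6.91 ± 0.647. In CgA-KO, Fads1 at 70.8 RPKM then lay above Fads2 at 66.9, and Acaca at 4.64 above Elovl6 at 3.51.

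Levels were also set against the mean of log2 CPM of each genotype. In WT replicate 2, 10 of 10 enzymes lay above the WT mean, by 0.33 on average, where 50.7% of all genes tested did. This held for 1 enzyme in WT replicate 1 and 2 in WT replicate 3, beside 51.4% and 46.8% of all genes. In CgA-KO replicate 1, 9 of 10 lay above the CgA-KO mean, by 0.19 on average, beside 52.3% of all genes, whereas 3 did in replicate 2 and 4 in replicate 3, beside 50% and 45.9%. No test was made of these counts. The enzymes of 1 liver share a library and its scaling factor. WT replicate 2 had the lowest TMM factor and also the highest sum of hepatocyte markers, 98650 CPM against 58870 in WT replicate 1 and 75570 in WT replicate 3. The profile over the 6 libraries of Elovl6 lay closest to the mean of the enzymes, with a root mean square difference of 0.0916 on the log2 scale, and that of Elovl5 farthest, at 0.516. Outside the list, the genes with the profile nearest to this mean, among 9890 candidates, were 1190007I07Rik (0.0895), Dcun1d1 (0.103), Prkd3 (0.106), Ociad2 (0.109) and Rpain (0.111).

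Promoter sequences were read from RefSeq (GRCm38.p6), 250 bases before to 50 after each start site, and were matched for 8 of the 10 members by symbol. They were searched on both strands for the sterol response element TCACNCCAC, the NF-Y motif CCAAT, the Sp1 motif GGGCGG and the E-box CACGTG. The sterol response element was in 0 of 8 members with a promoter and in 1.44% of the 27025 genes in the table, counting a gene once however many promoters it has. CCAAT was in 5 of 8 (Acacb, Elovl5, Me1, Acly and Fasn) and in 41.1% of all genes, GGGCGG in 3 of 8 (Me1, Acly and Fads2) and in 38.2%, and CACGTG in 1 of 8 (Elovl5) and in 8.09%. The bases before the start site are shown, 5′ to 3′ on the strand of the gene and with motifs in capitals, for the members whose RefSeq start is within 1 base of the annotated start of the gene. Fasn fell, Acly missed the threshold and Elovl5 was near 0, so the 3 span the range of responses. They are Fasn (chr11:120824548-120824797, minus strand), Acly (chr11:100528001-100528250, minus strand) and Elovl5 (chr9:77917115-77917364, plus strand).
Fasn: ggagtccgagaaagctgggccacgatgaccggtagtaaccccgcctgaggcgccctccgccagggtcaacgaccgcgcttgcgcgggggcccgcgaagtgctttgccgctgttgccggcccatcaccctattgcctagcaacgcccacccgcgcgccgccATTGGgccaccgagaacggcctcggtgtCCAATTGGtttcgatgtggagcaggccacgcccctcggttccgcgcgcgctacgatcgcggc
Acly: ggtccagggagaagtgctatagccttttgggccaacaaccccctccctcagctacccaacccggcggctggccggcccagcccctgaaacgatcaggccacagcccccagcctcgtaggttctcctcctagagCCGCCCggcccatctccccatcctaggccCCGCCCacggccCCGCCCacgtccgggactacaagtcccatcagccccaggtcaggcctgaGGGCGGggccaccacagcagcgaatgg
Elovl5: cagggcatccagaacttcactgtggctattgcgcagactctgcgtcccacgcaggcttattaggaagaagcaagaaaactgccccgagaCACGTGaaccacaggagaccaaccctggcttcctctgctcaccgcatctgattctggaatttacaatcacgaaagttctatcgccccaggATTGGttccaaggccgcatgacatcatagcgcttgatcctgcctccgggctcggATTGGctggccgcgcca
Fasn held 3 copies of CCAAT, of which the pair within CCAATTGG overlap on opposite strands, Acly held 4 copies of GGGCGG in the bases shown, and Elovl5 held 2 of CCAAT and 1 of CACGTG. Of the genes that fell, Fasn held CCAAT, Me1 held it in 1 of its 2 promoters in the table, and Fads2, Elovl6 and Acaca held none. Of the others, Acly, Acacb and Elovl5 held it, and Scd1 and Fads1 had no promoter to search. The match in Acly lay 37 to 41 bases after the start site, outside the bases shown. The RefSeq starts of Acaca (84195438) and Acacb (114165518) lay well inside these genes, whose annotated starts are 84129672 and 114146535. The CCAAT of Me1 was in the window of its start at 86687277, also inside the gene, whose annotated start is 86695953. The matches and absences in these windows, and the counts that include them, may thus not describe the main promoters of these genes.

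Beyond the enzymes, 6 lists of other genes of the pathway held 82 genes, of which 76 were tested. Of these, 10 fell and 5 rose, compared with 3.84% lower and 8.6% higher over all genes, and their median log2 fold change was -0.25. Among the 19 transcriptional regulators, 3 fell and 1 rose, which is 21.1% called, beside 12.4% of all genes tested in either direction. Srebf1, which encodes SREBP-1c, was at 79.4, 128 and 158 CPM in WT replicates 1 to 3 and at 42.7, 44.0 and 23.6 CPM in CgA-KO replicates 1 to 3. The groups did not overlap, and Srebf1 fell by 1.73 on the log2 scale (SE 0.322, adjusted p = 0.0128 in edgeR's test), although it did not pass without WT replicate 2 or WT replicate 3, with adjusted p-values up to 0.0553. Insig1 and Insig2 encode proteins that hold SREBP precursors in the endoplasmic reticulum, and they moved in opposite directions. Insig1 was at 376, 421 and 364 CPM in WT and at 111, 118 and 86.7 CPM in CgA-KO, and it fell by 1.88 on the log2 scale (SE 0.218, adjusted p = 0.00346). Insig2 was at 47.1, 108 and 60.2 CPM in WT and at 374, 290 and 712 CPM in CgA-KO, and it rose by 2.68 (SE 0.428, adjusted p = 0.00778), with an adjusted p-value of 0.0512 without WT replicate 3. Nfyb, a subunit of NF-Y, fell by 0.77 (adjusted p = 0.0373) and lost its call under 7 of 14 alternatives, including those without WT replicates 2 or 3 or any single CgA-KO library, with adjusted p-values up to 0.374. Mlxipl, which encodes ChREBP, had a log2 fold change of -0.96 that did not pass (adjusted p = 0.108). It passed under 2 of 14 alternatives, DESeq2 and the fit without WT replicate 2. Over all 14 its adjusted p-values ranged from 0.0266 to 0.384. Nr1h3, a liver X receptor, and Scap, the escort of SREBP, were at -0.06 and -0.34 and did not pass (adjusted p = 0.863 and 0.263). Nr1h2, the other liver X receptor, was at 0.54 and did not pass (adjusted p = 0.0631 in edgeR's test). Every CgA-KO library lay above every WT library for Nr1h2.

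Among the 11 genes that act on the carboxylases or their product, 2 fell and 0 rose, which is 18.2% called, beside 12.4% of all genes. Thrsp, also called Spot 14, is a lipogenic protein of liver, and Mid1ip1 is its relative that promotes polymerisation of acetyl-CoA carboxylase. Thrsp was at 105, 238 and 201 CPM in WT replicates 1 to 3 and at 27.1, 23.4 and 37.9 CPM in CgA-KO replicates 1 to 3. Its level in CgA-KO was 16.2% of the WT mean, and it fell by 2.62 on the log2 scale (SE 0.338, adjusted p = 0.00443 in edgeR's test). Mid1ip1 was at 25.8, 57.3 and 37.3 CPM in WT and at 14.3, 15.3 and 12.8 CPM in CgA-KO, and it fell by 1.51 (SE 0.277, adjusted p = 0.0124). Mlycd, which degrades malonyl-CoA, was at -0.34 and did not pass (adjusted p = 0.315).

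Among 15 tested genes of carbon and NADPH supply, 2 fell and 2 rose, which is 26.7% called, beside 12.4% of all genes. The mitochondrial dicarboxylate carrier Slc25a10 fell by 0.88 (adjusted p = 0.0179 in edgeR's test) and the cytosolic isocitrate dehydrogenase Idh1 by 1.00 (adjusted p = 0.0241). G6pdx, the first enzyme of the pentose phosphate pathway, was at 4.12, 2.98 and 2.96 CPM in WT and at 11.8, 20.9 and 21.6 CPM in CgA-KO, and it rose by 2.45 (SE 0.297, adjusted p = 0.00390). Me2, a mitochondrial malic enzyme, was at 2.51, 1.74 and 1.48 CPM in WT and at 10.4, 13.8 and 10.3 CPM in CgA-KO, and it rose by 2.61 (SE 0.290, adjusted p = 0.00310), the opposite direction to Me1. Both genes that rose had low levels. Acss2 (-0.87, adjusted p = 0.0616), the citrate carrier Slc25a1 (-0.90, adjusted p = 0.0664) and Pgd (0.62, adjusted p = 0.0560) had no overlap between genotypes and did not pass. Each passed with DESeq2 and without WT replicate 1, and they passed under 3, 3 and 2 of 14 alternatives. Over these, their adjusted p-values ranged from 0.0152 to 0.196, 0.0142 to 0.219 and 0.0310 to 0.223.

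Of 8 tested relatives of the elongases and desaturases, 1 fell and 1 rose, which is 25% called, beside 12.4% of all genes tested. Elovl2, which elongates long polyunsaturated chains, fell by 0.97 on the log2 scale (adjusted p = 0.0251 in edgeR's test), from 292 ± 59.2 to 149 ± 14.3 CPM (SD, n = 3). Scd2, a paralog of Scd1, was at 6.00, 3.96 and 3.98 CPM in WT and at 19.2, 18.7 and 7.89 CPM in CgA-KO, and it rose by 1.73 (SE 0.364, adjusted p = 0.0186). The counting could have split reads between Scd1 and Scd2. Of 10 partners that complete the elongation cycle or pass electrons to the desaturases, 1 fell (Cyb5b, a cytochrome b5, by 1.01, adjusted p = 0.0230) and 1 rose (Hacd4, a dehydratase, by 2.53, adjusted p = 0.00603). These calls made up 20% of the partners, beside 12.4% of all genes. The level of Hacd4 was low, from 1.97 ± 0.580 CPM in WT to 11.2 ± 4.30 CPM in CgA-KO (SD, n = 3). The other dehydratases, Hacd1, Hacd2 and Hacd3, were at -0.46, -0.38 and -0.44 and did not pass (adjusted p = 0.142, 0.237 and 0.251 in edgeR's test). Hsd17b12 (-0.66, adjusted p = 0.0876) and Tecr (-0.18, adjusted p = 0.744), which reduce the elongation intermediates, did not pass. Among 13 tested genes of acyl-CoA formation and esterification, 1 fell: Acsl3, an acyl-CoA synthetase, by 1.04 (adjusted p = 0.00831). With 7.69% called, this list was below the 12.4% of all genes. Gpam, the acyltransferase that begins glycerolipid synthesis, was at -0.43 and did not pass (adjusted p = 0.149).

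Of these 15 genes, Thrsp, Mid1ip1, Insig1, G6pdx, Me2 and Hacd4 were called under all 14 alternatives. Leaving out single libraries ended the calls of Slc25a10 (WT replicate 3, CgA-KO replicates 1 and 3), Idh1, Scd2 and Cyb5b (each with WT replicates 2 and 3 and CgA-KO replicates 1 and 2) and Elovl2 (WT replicates 2 and 3, CgA-KO replicates 1 and 3). The highest adjusted p-values of these over all alternatives were 0.190, 0.162, 0.0926, 0.180 and 0.0992. Acsl3 kept its call in every fit without 1 library and lost it with scaling to hepatocyte markers (adjusted p = 0.212).

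**Figure D4:**
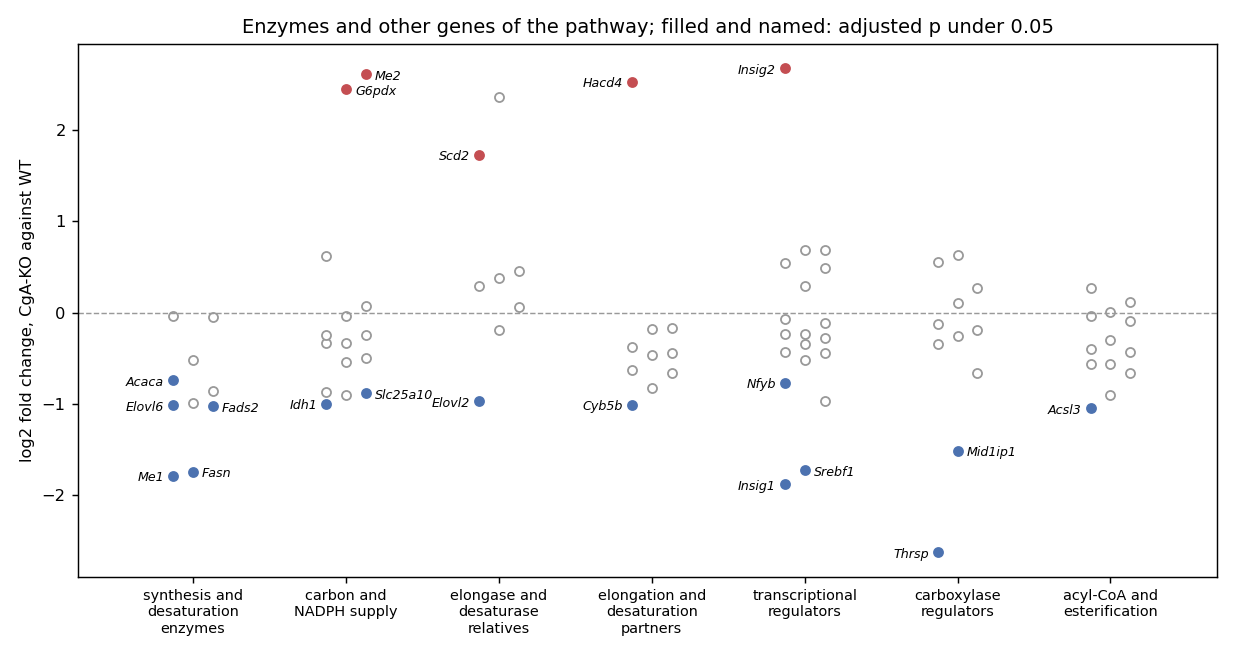
Log2 fold change of CgA-KO against WT (linear axis) for the 10 enzymes and the 76 tested genes of 6 lists of the pathway, with 1 point per gene and filled, named points for adjusted p-values under 0.05. In the lists beside the enzymes 10 genes lie in blue below 0, Thrsp lowest at -2.62, and 5 lie in red above 0, Insig2 highest at 2.68.

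Markers of some other cells differed between the genotypes, where 8.6% of all genes tested were called higher and 3.84% lower. In bulk RNA, fewer cells of a type and less RNA per cell cannot be told apart. Of 10 Kupffer cell markers, 9 rose and 0 fell, and their summed level was 131 to 342 CPM in WT and 1431 to 2057 CPM in CgA-KO. Of 8 markers of T and NK cells, 5 rose, with sums of 3.70 to 14.3 CPM in WT and 47.4 to 107 CPM in CgA-KO. Of 8 neutrophil markers, 4 were tested, and Ly6g, Mpo, Elane and Camp did not pass the filter. Of the 4, 3 rose, with sums of 2.54 to 10.04 CPM in WT and 29.1 to 229 CPM in CgA-KO, the latter in CgA-KO replicate 2. Some markers with few counts in WT passed the filter only through CgA-KO libraries, which favours genes that rose. Retnlg, for example, had 0, 13 and 5 counts in WT and 52, 140 and 39 in CgA-KO replicates 1 to 3. No conclusion is therefore drawn from the numbers of T, NK and neutrophil markers that rose. Of 6 B and plasma cell markers, 0 passed, with sums of 8.05 to 52.6 CPM in WT and 13.2 to 51.1 CPM in CgA-KO. Of 12 stellate, bile duct and endothelial markers, Reln rose and Clec4g fell, with sums of 116 to 164 CPM in WT and 143 to 190 CPM in CgA-KO. Of the called markers, 7 of 9 for Kupffer cells, 0 of 5 for T and NK cells and 0 of 3 for neutrophils were called in each of the 6 fits without 1 library. The part of these cells in the lower levels of the enzymes was not tested. Adipocytes also express the enzymes, and of 8 adipocyte markers 3 were tested. Car3, which hepatocytes express too, fell, while Fabp4 (log2 fold change 0.28) and Adrb3 (-1.155) did not pass. Of the others, Adipoq, Plin1, Retn and Cfd had at most 1, 7, 3 and 19 counts in a library, and Lep had 0 in all.

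Transcription of this pathway follows feeding and the hour of day. Of 14 clock genes, 6 fell and 3 rose, with a summed level of 801 to 1144 CPM in WT and 428 to 520 CPM in CgA-KO, and 5 of the 9 were called in each of the 6 fits without 1 library. Arntl, which encodes the clock activator BMAL1, averaged 0.814 ± 0.383 CPM in WT livers against 16.8 ± 2.43 CPM in CgA-KO livers (SD, n = 3) and rose by 4.44 on the log2 scale (adjusted p = 0.00164 in edgeR's test). Per3, a clock repressor, fell from 70.0 ± 24.5 to 7.82 ± 1.68 CPM (adjusted p = 0.00247). Of 12 genes that fasting raises in liver, 1 rose and 0 fell, with sums of 5809 to 7127 CPM in WT and 6036 to 8819 CPM in CgA-KO. That is 8.33% called, near the 8.6% called higher over all genes tested. The gene called was Igfbp1, which rose by 3.16 (adjusted p = 0.0125 in edgeR's test). It did not pass without WT replicate 2 or WT replicate 3, with adjusted p-values up to 0.103 over the alternatives. Pck1, of gluconeogenesis, was at 2714 ± 305 and 2868 ± 948 CPM and did not pass (adjusted p = 0.897). The part of collection hour and feeding in the levels of the enzymes was not tested, and as the labels give neither, they cannot be told apart from the genotype here.

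The choice of scaling shifted the fold changes of all genes. Scaling by library size alone moved the median of all genes to 0.26 on the log2 scale, and scaling to hepatocyte markers moved it to 0.25. The median log2 fold change of the enzymes was then -0.61 and -0.56, which is 0.87 and 0.81 below that of all genes, compared with 0.91 below with TMM factors. With these scalings 86.6% and 88.7% of called genes were higher in CgA-KO, compared with 69.1% with TMM factors.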

How the data were processed

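Pieces of liver from 3 WT and 3 CgA-KO mice were measured by poly(A) RNA-seq. The authors deposited a table of counts per gene, not scaled. Per their methods and notes, reads were quantified per transcript with Salmon 1.4.0 against GRCm38; the step from transcripts to genes is not given in the sources used here. All 6 columns were used. Replicates of a genotype differed by more than sampling noise (chi-square per degree of freedom 29.9 to 190). Genes passing filterByExpr (minimum count 10) were tested with edgeR 4.0.16 (TMM, robust quasi-likelihood fit, two-sided) in R 4.3.3, with Benjamini-Hochberg adjustment over all genes and calls at 0.05. P-values set the difference between genotypes against the spread between these libraries. Standard errors were derived from the test statistic. Alternatives used DESeq2 1.42.0 (the study's tool), limma 3.58.1 (voom), other scalings and filters, a replicate block and fits without single libraries; RPKM by longest coding transcript was added after seeing the data. RPKM and coordinates used GENCODE M21. Named genes were all members, called genes of the lists, a preset set of key regulators and enzymes, and the 5 nearest profiles with at least 5 CPM. Hacd1, Hacd2, Hacd3 and Nr1h2 were named after the values were seen. Pc had no row, and Elovl4, Scd3, Scd4, Degs2 and Pnpla3 did not pass the filter. The members and lists were chosen with earlier results of these data known. The code was tested on simulated data. Figures used matplotlib 3.10.9.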

Additional observations from a re-analysis of the deposited data

How the results depend on the processing

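With 3 livers per genotype, the enzymes kept their direction in 128 of 140 combinations of enzyme and alternative; the exceptions were Acacb and Elovl5. The log2 fold change of Acacb was 0.23 with library size alone, 0.0198 with upper-quartile factors and 0.25 with scaling to hepatocyte markers, and from -0.11 to 0.14 without single libraries. That of Elovl5 was 0.27, 0.0177 and 0.23 with these scalings, 0.0021 with limma-voom, 0.0029 with a replicate block, and from -0.26 to 0.29 without single libraries. Over all genes 1726 were called, with 2592 by DESeq2, 919 with hepatocyte scaling and 394 (without WT replicate 3) to 2126 (without WT replicate 1) without single libraries; leaving out WT replicate 2 gave 841, CgA-KO replicate 1 gave 744 and CgA-KO replicate 2 gave 976. Of the 10 enzymes, 5 were called, with 7 by DESeq2, 2 with hepatocyte scaling and 2 to 5 without single libraries. Their median was -0.61 with library size alone and -0.56 with hepatocyte scaling. Of the other pathway genes 15 were called, with 27 by DESeq2, 9 with hepatocyte scaling and 7 (without WT replicate 3) to 19 without single libraries. With the longest coding transcript, the WT level of Acly was 27.6, of Acaca 7.74, of Acacb 6.91 and of Fads1 101 RPKM, each over 1 SD from the level by exonic length. Fits without a library had fewer samples; the other causes were not tested. Deviations of same-numbered livers correlated at 0.199, 0.0127 and -0.0659, so the numbers were not taken as pairs; with the replicate block 1498 genes and 4 enzymes were called, Acaca being lost (adjusted p = 0.0904), and not every library correlated best with its own number.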

Other observations

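Some relatives of the enzymes varied more between livers of 1 genotype than between genotypes. Elovl3, an elongase of saturated and monounsaturated chains, was at 44.1, 148 and 62.3 CPM in WT replicates 1, 2 and 3 and at 55.01, 26.5 and 231 CPM in CgA-KO replicates 1, 2 and 3. Its log2 fold change was 0.29 (SE 0.727, adjusted p = 0.830 in edgeR's test), and it ranged from -1.02 to 0.96 over the fits without 1 library. Lpin1, a phosphatidate phosphatase, was at 123, 126 and 191 CPM in WT and at 97.5, 260 and 54.9 CPM in CgA-KO, where replicate 2 was highest and replicate 3 lowest. Elovl7 had between 2 and 83 counts in a library, with the most in CgA-KO replicate 3.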
